A study of Macaca mulatta with 5 samples.

Results

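The genes described here are the cadherin superfamily as the deposited expression table of a rhesus macaque neural culture study names it: classical and other cadherins, protocadherins, the CELSR genes and the FAT and DCHS genes. They were taken by their deposited gene symbols (CDH followed by a number, any symbol starting PCDH, CELSR1 to CELSR3, FAT1 to FAT4, DCHS1 and DCHS2), with no measured value in the choice. The rule found 44 rows of the table's 16970 genes, with 43 distinct symbols, since FAT4 has 2 rows.

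Cadherins are calcium-dependent adhesion proteins of the cell surface, and each carries a row of cadherin repeats that bind the same or a related protein on a neighbouring cell. Classical cadherins hold the apical junctions of neuroepithelium together through catenins that link them to actin. Clustered protocadherins give single neurons a combination of surface proteins by which branches of the same cell recognise each other, and the CELSR, FAT and DCHS proteins are large atypical cadherins of planar cell polarity, the shared orientation of cells within a sheet.

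RNA sequencing measured 5 libraries of cells made from monkey embryonic stem cells. Neurons, 1 library, were neuroepithelial stem cells of passage 36 kept for 13 days in differentiation medium (Neurobasal with N2 and B27 supplements), on plates coated with laminin (5 µg/ml) and gelatin (0.05%). Radial glial progenitor cells (RGPC), 1 library, were cells of passage 36 kept for 7 days in stem cell medium from which CHIR99021, which inhibits GSK3 and so turns on WNT signalling, was left out. Neuroepithelial stem cells (NESC), at passages 5, 24 and 36 with 1 library each, grew with 3 µM CHIR99021, 5 µM SB431542 (an inhibitor of TGF-beta receptors), bFGF at 10 ng/ml and human LIF at 1000 U/ml, and RGPC kept the last 3 of these. The labels do not say whether the libraries came from separate cultures, nor whether the lines were clones.

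The libraries held between 5403437 and 7899991 reads assigned to genes. The 8 neuron markers summed to 4249 FPKM in neurons, 847 FPKM in RGPC and 515, 377 and 338 FPKM in NESC, although RBFOX3, a marker of mature neurons, was listed at 0 in neurons. The 5 progenitor markers summed to 303 FPKM in neurons, 1028 FPKM in RGPC and 693 to 861 FPKM in NESC, and the 5 radial glial markers found to 1969 FPKM in neurons, 4426 FPKM in RGPC and 2536 to 3483 FPKM in NESC. The sums were thus highest in neurons for the neuron list and in RGPC for the radial glial list, whose largest term was VIM. Single markers that went the other way were RBFOX3, FABP7 (704 FPKM in neurons, 1199 FPKM in RGPC and 1505 FPKM in NESC at passage 5) and SLC1A3 (199.8 FPKM in neurons and 56.6 FPKM in RGPC). Other cell types gave low sums: the endothelial list stayed at or below 1.13 FPKM, the astrocyte list at or below 5.84 FPKM, and SOX10 of neural crest at 0 in 3 libraries. Exceptions were the 4 mesenchymal markers found, with 3.08 FPKM in neurons, 3.53 FPKM in RGPC and 59.1, 11.2 and 1.42 FPKM in NESC at passages 5, 24 and 36, and the neural crest marker TFAP2B, which made up most of a crest list sum of 64.7 FPKM in neurons. The part of these lists in the results below was not tested, and in bulk RNA fewer cells of a type and less RNA per cell cannot be told apart.

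Levels are in FPKM, fragments scaled by transcript length and by library size, which may be compared between genes. Log2 fold changes are on the log2(FPKM + 1) scale, which understates the change of low genes, each with its standard error (SE) and the adjusted p of limma, a linear model fitted over the 14571 genes with at least 1 FPKM in a library. Rose and fell mean an adjusted p under 0.05. RGPC and neurons have 1 library each, so the model takes their spread from NESC, and every p measures the spread between the 3 NESC libraries only. NESC values always stand in the order of passages 5, 24 and 36.

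Most of the family stood highest in neurons. Of the 44 rows, 28 had their highest level in neurons, 9 in RGPC, 2 at passage 5, 1 at passage 24 and 4 at passage 36. The share of all genes that were highest in neurons was not counted, so the 28 cannot be set against it. They include rows on few reads, such as FAT2 (7 reads in neurons) and CDH15 (2 reads). In all libraries 38 rows were above 0, 31 rows reached 50 reads in some library and 7 stayed under 20 reads everywhere. Per transcript length the most abundant members were PCDHGC5 with 109 FPKM in neurons, CELSR2 with 86.0 FPKM in RGPC and PCDH8 with 71.9 FPKM in RGPC.

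**Figure D1:**
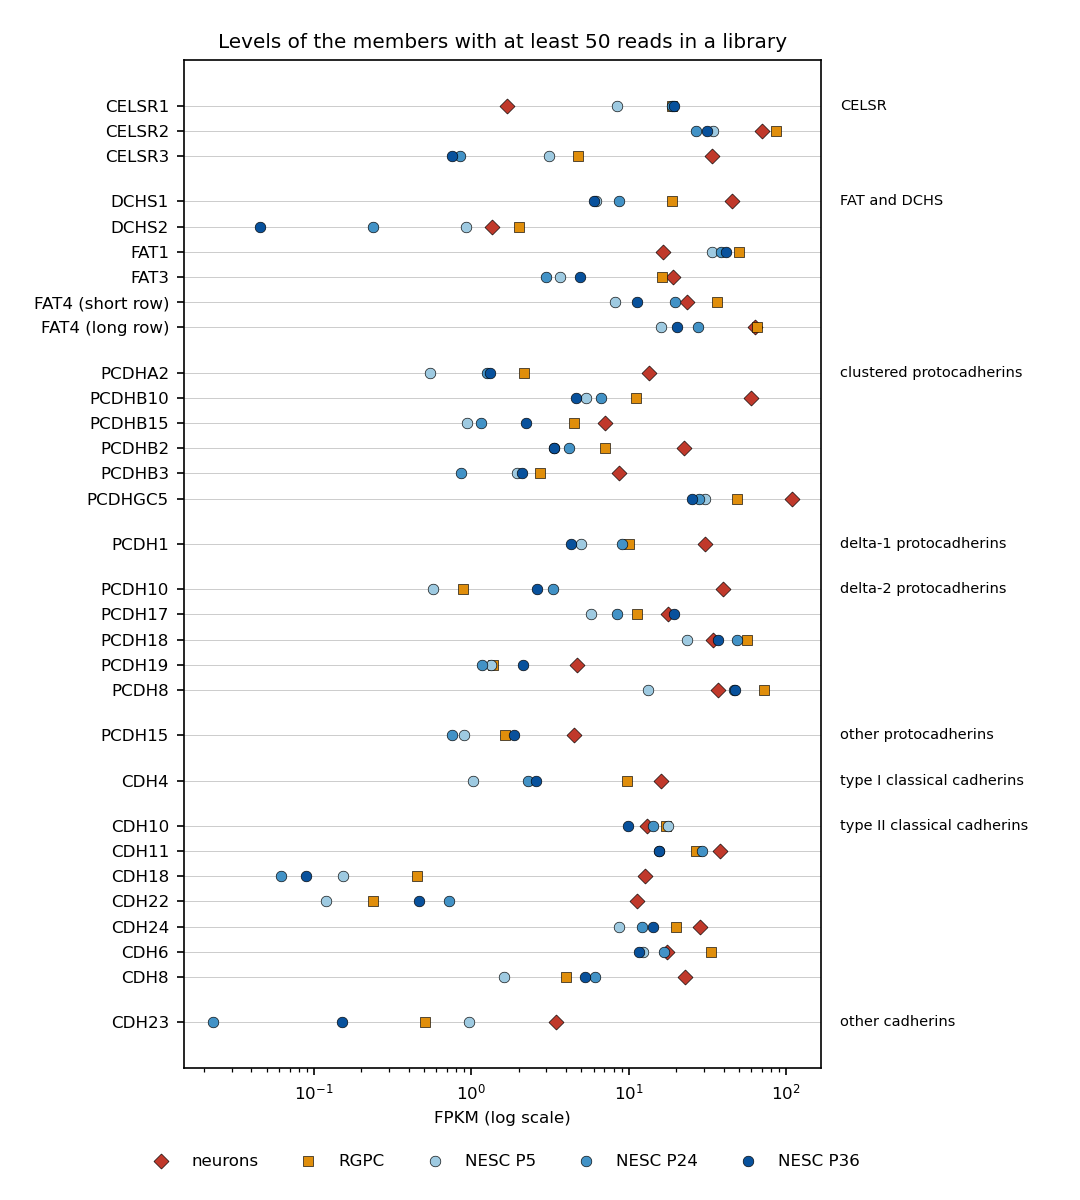
FPKM (log scale) of the 31 members with at least 50 reads in a library, grouped by class, with 1 point per library and no replicates for neurons or RGPC. Neurons lie to the right of the other libraries for the clustered protocadherins, PCDH1, PCDH10, CELSR3, DCHS1, CDH8, CDH18 and CDH22, and to the left of them for CELSR1 and FAT1.

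In neurons against NESC 15 members rose and 1 fell, of 38 that passed the filter of 1 FPKM and 44 in all. Over all tested genes 14.3% rose and 13.3% fell, 27.5% in either direction. Of the 37 members with at least 20 reads in neurons or a NESC library, 29 lay above the NESC range, against 40.9% of all such genes, and 3 below it (FAT1, CELSR1 and CDH17), against 42.5%. By at least 2-fold 23 lay above the range, against 17.6% of all genes, and FAT1 and CELSR1 as far below it, against 17.5%. The median log2 fold change of the tested members was 1.46, against 0.01 over all genes. The filter of 1 FPKM favours the count that rose. Through neurons alone 7 members (CDH9, CDH18, CDH20, CDH22, CDH23, PCDHB4 and PCDHB16) passed it, and 5 of those 7 rose. The filter of 20 reads likewise favours the counts above the NESC range. CDH9, CDH18, CDH22, CDH23, PCDHB4 and PCDHB16 reached 20 reads in neurons alone, and all lay at least 2-fold above that range. Those counts are thus in part fixed by the filter, which the shares of all genes also used. Among the 30 members with at least 1 FPKM in some NESC library, 10 rose and 1 fell, and 10.7% of all genes with that level in NESC rose. The count of 16 changed members rests on the NESC libraries: it was 5 without passage 5 (CDH9, CDH18, CDH22, CELSR3 and PCDHA2), 0 without passage 24 and 0 without passage 36, where the lowest adjusted p was 0.0862 and 0.0833. In those last fits 20 and 21 members had an unadjusted p under 0.05, and no gene of the whole table passed. edgeR on the recovered reads called 23 members, 21 higher and 2 lower, against 18.9% and 17.7% of the genes it tested. These held all 16 of limma's members. The others were CELSR1, lower, and CDH8, PCDH1, PCDH15, PCDHB3, PCDHB15 and the longer FAT4 row, higher.

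**Figure D2:**
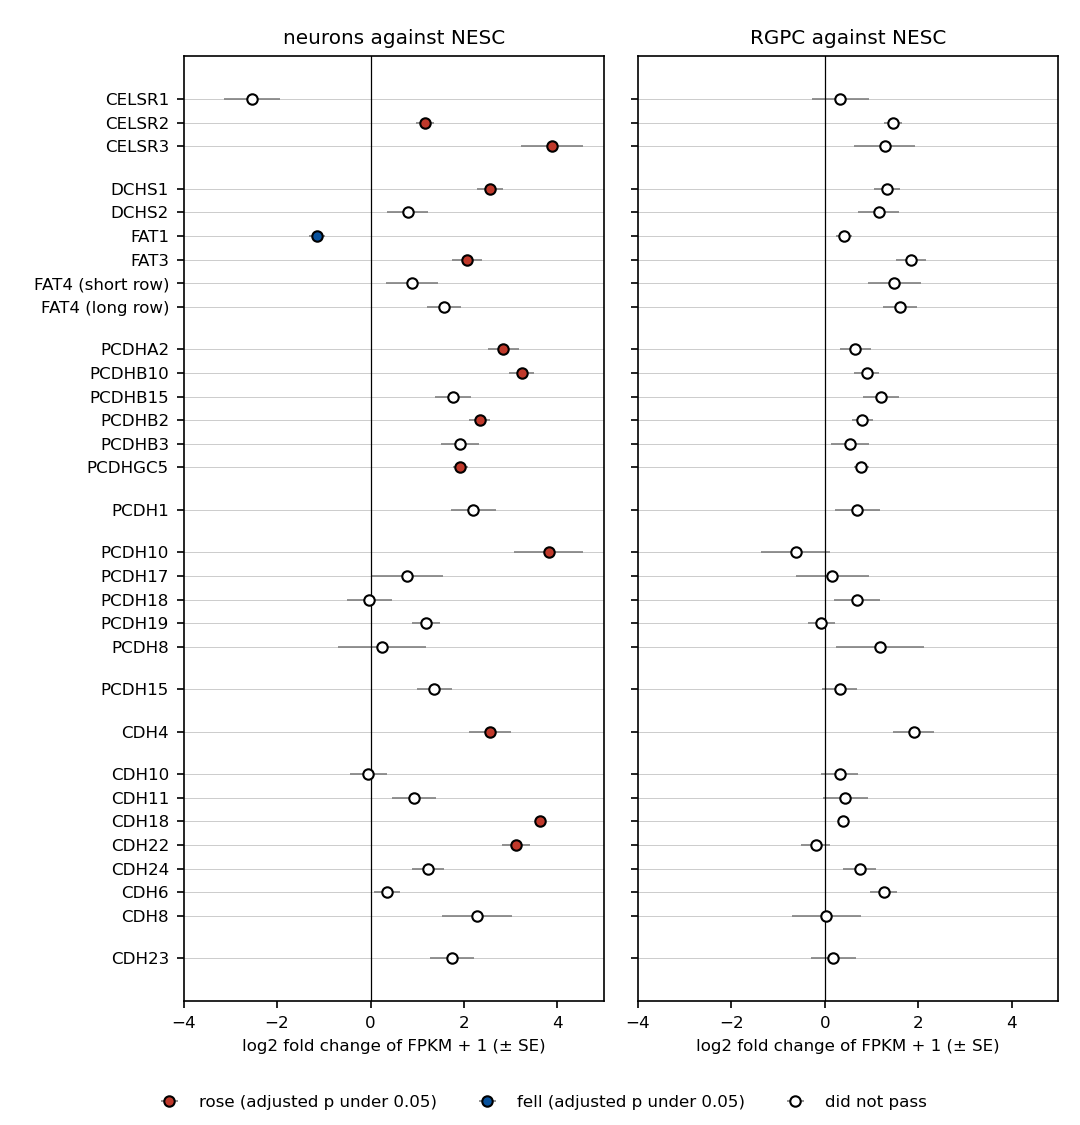
Log2 fold change on the log2(FPKM + 1) scale, with its standard error from limma as bars, for the members with at least 50 reads in a library, in neurons against NESC and in RGPC against NESC; filled symbols passed an adjusted p of 0.05. The largest positive values in neurons are those of CELSR3, PCDH10 and CDH18, only CELSR1 and FAT1 lie below −1 there, and no member is filled for RGPC.

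The clustered protocadherins were the class with the highest sum in neurons. These genes lie in tandem on chromosome 6, here from 137199500 to 137908118 in the deposited coordinates, for which the sources used here name no genome build; each gene has its own promoter and first exon, and the alpha and gamma genes splice to exons shared by their cluster. The table names 9 of them, of which 8 were tested, 6 rose and the other 2 (PCDHB3 and PCDHB15) missed the threshold, and all 8 had at least 2-fold more FPKM in neurons than in any NESC library. Of the 6 that rose, PCDHB4 and PCDHB16 passed the filter through neurons alone, and both also reached 20 reads in neurons alone. Over all tested genes 14.3% rose, and 17.6% of genes with 20 reads in neurons or NESC lay at least 2-fold above the NESC range. Their summed level was 227 FPKM in neurons, 77.8 FPKM in RGPC and 43.3, 42.5 and 39.5 FPKM in NESC. The sum was thus highest in neurons and alike in the NESC libraries, where PCDHGC5 made up most of it. Single tested genes differed more between passages, from 1.21-fold for PCDHGC5 to 2.43-fold for PCDHB3 and 2.86-fold for PCDHB16, the last on at most 4 reads in NESC.

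PCDHGC5, one of the C-type gamma genes at the end of the array, had 109 FPKM in neurons, 48.8 FPKM in RGPC and 30.6, 27.9 and 25.4 FPKM in NESC. It took 47.9% of the class's sum in neurons, 62.7% in RGPC and 64.1% to 70.8% in NESC. PCDHGC5 rose in neurons (log2 fold change 1.92 ± 0.16, adjusted p = 0.0171), and among the members with 20 reads in NESC it varied least between passages, by 1.21-fold. The table gives PCDHGC5 (chromosome 6, 137734566 to 137908118) and PCDHGA8 the same span, and PCDHGA8 had at most 5 reads in a library; how the authors' counting divided reads on shared gamma exons is not given, so the level of a single gamma gene is uncertain.

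PCDHB10 was the highest beta protocadherin, with 60.2 FPKM in neurons, 11.1 FPKM in RGPC and 5.36, 6.63 and 4.63 FPKM in NESC. The level rose in neurons (log2 fold change 3.24 ± 0.26, adjusted p = 0.0171). Beta genes are single-exon genes with close sequence copies next to each other, so reads may be split between them, and PCDHB10 and PCDHB16 share 1 deposited span (137574693 to 137628414) with 1 more row that only the annotation table names, as PCDHB13. PCDHB2 (chromosome 6, 137495260 to 137497781) had 22.3 FPKM in neurons, 7.05 FPKM in RGPC and 3.37, 4.18 and 3.34 FPKM in NESC and also rose (log2 fold change 2.34 ± 0.23, adjusted p = 0.0203). PCDHB4 had 4.05 FPKM in neurons (45 reads), 0.786 FPKM in RGPC (10 reads) and 0.295, 0.346 and 0.188 FPKM in NESC (3 or 4 reads). It rose against NESC (log2 fold change 1.99 ± 0.13, adjusted p = 0.0135) and against RGPC (log2 fold change 1.50 ± 0.16, adjusted p = 0.0385). The PCDHB4 call against RGPC was lost with a pseudocount of 0.1, with at least 20 reads required and with quantile normalization. It was also lost in edgeR (adjusted p = 0.135).

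PCDHA2, the only alpha gene that the deposited symbols name, had 13.4 FPKM in neurons, 2.16 FPKM in RGPC and 0.542, 1.26 and 1.31 FPKM in NESC, on 8 to 23 reads in NESC. It rose in neurons (log2 fold change 2.84 ± 0.34, adjusted p = 0.0248), and neurons and RGPC both lay above every NESC library. PCDHB16 rose on few reads, with 2.61 FPKM from 25 reads in neurons, 0.638 FPKM in RGPC and 0.175, 0.101 and 0.289 FPKM in NESC (log2 fold change 1.61 ± 0.14, adjusted p = 0.0180). PCDHB3, with 8.71 FPKM in neurons, 2.73 FPKM in RGPC and 1.94, 0.863 and 2.09 FPKM in NESC, just missed the threshold (log2 fold change 1.92 ± 0.40, adjusted p = 0.0540). Neurons again stood apart from all other libraries for PCDHB16 and PCDHB3. PCDHB15 had 7.07 FPKM in neurons, 4.49 FPKM in RGPC and 0.933, 1.16 and 2.21 FPKM in NESC. Its log2 fold change was 1.76 ± 0.39 in neurons (adjusted p = 0.0580) and 1.21 ± 0.39 in RGPC (adjusted p = 0.354), and of the 8 tested clustered genes it was the nearest to its neuronal level in RGPC.

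**Figure D3:**
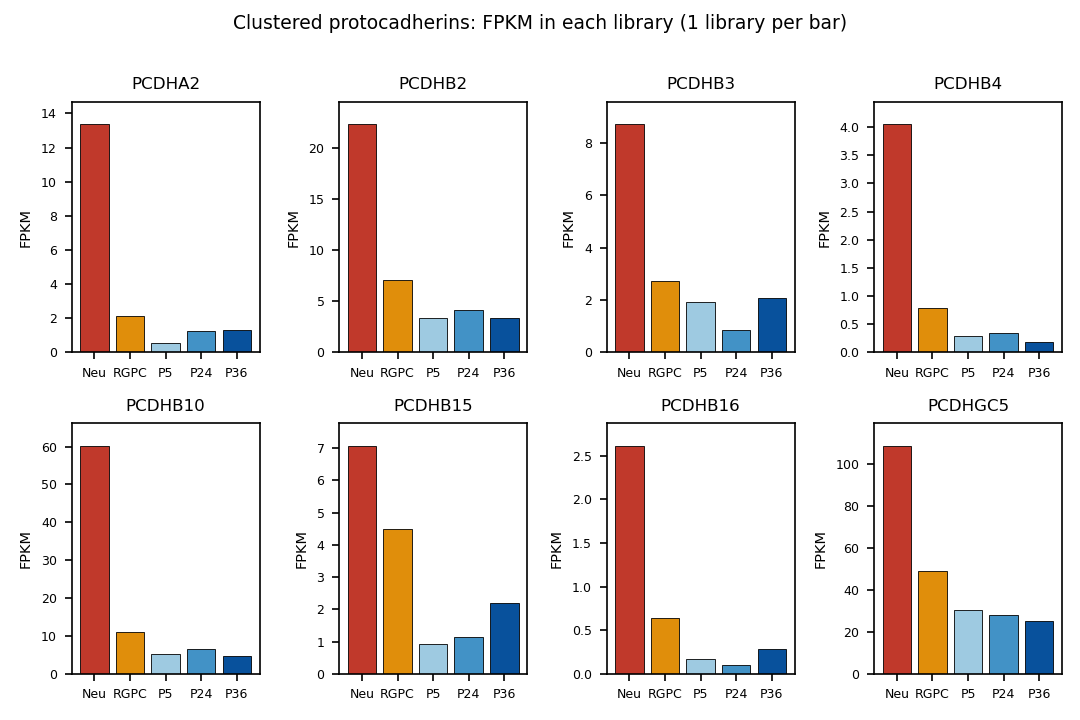
FPKM of the 8 tested clustered protocadherins, 1 bar per library (neurons, RGPC, then NESC at passages 5, 24 and 36), each panel on its own linear axis from 0. Neurons have the highest bar and RGPC the second highest bar in every panel, and the ratio of the 2 is smallest for PCDHB15.

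The CELSR genes lay on both sides of NESC in neurons: CELSR2 and CELSR3 rose, and CELSR1 lay lower without passing limma's test. Their summed level was 106 FPKM in neurons, 110 FPKM in RGPC and 46.1, 46.5 and 51.7 FPKM in NESC, while the share of each member shifted. CELSR1 made up 1.6% of the sum in neurons, 17.1% in RGPC and 18.4% to 40.6% in NESC, and CELSR3 made up 32% in neurons, 4.33% in RGPC and 1.46% to 6.71% in NESC.

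CELSR3, needed for the growth of major axon tracts in the mouse brain, had 33.9 FPKM in neurons, 4.74 FPKM in RGPC and 3.09, 0.847 and 0.753 FPKM in NESC. It rose in neurons (log2 fold change 3.88 ± 0.66, adjusted p = 0.0395), with the passage 5 library nearer to RGPC than to the later passages. CELSR2, which in the mouse acts in dendrite upkeep and in the cilia of ependymal cells, had 70.4 FPKM in neurons, 86.0 FPKM in RGPC and 34.5, 26.8 and 31.6 FPKM in NESC. It rose in neurons (log2 fold change 1.17 ± 0.19, adjusted p = 0.0376); RGPC stood at least as far above NESC, with 1.45 ± 0.19 on the log2 scale, but the adjusted p of 0.226 missed the threshold and was the lowest of any member in that comparison. CELSR1, which is needed for closure of the neural tube in the mouse, had 1.69 FPKM in neurons, 18.8 FPKM in RGPC and 8.47, 18.9 and 19.3 FPKM in NESC. Neurons lay below every other library, on 19 reads, while passages 24 and 36 and RGPC lay within 1 FPKM of each other. The log2 fold change was −2.54 ± 0.60 against NESC (adjusted p = 0.0667) and −2.88 ± 0.74 against RGPC (adjusted p = 0.115), neither past limma's threshold, and edgeR gave adjusted p values of 0.0188 and 0.0472.

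The FAT and DCHS genes stood above NESC in RGPC throughout. All 6 tested rows, both FAT4 rows among them, lay above the highest NESC library in RGPC, and 4 did so by at least 2-fold. Of all genes with 20 reads in RGPC or NESC, 39% lay above the NESC range and 3.66% at least 2-fold above it. None of the 6 passed limma's test there (adjusted p of 0.278 to 0.388 for those 4). In neurons 5 of the 6 lay above NESC, against 40.9% of all genes with 20 reads in neurons or NESC. DCHS1 and FAT3 rose there, and FAT1 fell. FAT2, the seventh row, had at most 7 reads in a library and was not tested.

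DCHS1, the ligand of FAT4, had 45.0 FPKM in neurons, 18.8 FPKM in RGPC and 6.17, 8.62 and 5.996 FPKM in NESC. The groups did not overlap, and it rose in neurons (log2 fold change 2.55 ± 0.28, adjusted p = 0.0234), with 1.34 ± 0.28 in RGPC against NESC (adjusted p = 0.301) and 1.22 ± 0.35 in neurons against RGPC (adjusted p = 0.134). FAT4, its receptor, whose mutations are tied in human, like those of DCHS1, to misplaced cortical neurons, is split over 2 rows on chromosome 5. The long row (117731027 to 117833894) had 63.3 FPKM in neurons, 65.7 FPKM in RGPC and 16.0, 27.6 and 20.2 FPKM in NESC, and the short row (117646868 to 117653368) had 23.5 FPKM in neurons, 36.3 FPKM in RGPC and 8.21, 19.6 and 11.3 FPKM in NESC. Both rows had their highest level in RGPC. The long row's log2 fold change was 1.56 ± 0.36 in neurons (adjusted p = 0.0645) and 1.61 ± 0.36 in RGPC (adjusted p = 0.305). Neurons and RGPC differed by −0.05 ± 0.45 there, and the sign of that difference turned under median-of-ratios scaling (0.08) and in edgeR (0.03).

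FAT1, which acts with FAT4 in neural tube closure in the mouse, had 16.5 FPKM in neurons, 50.5 FPKM in RGPC and 33.8, 38.4 and 41.6 FPKM in NESC. It had the highest level of its class in NESC and was the only member that fell in neurons (log2 fold change −1.15 ± 0.17, adjusted p = 0.0326); against RGPC the log2 fold change was −1.56 ± 0.21 with an adjusted p of 0.0526 in limma. FAT3, which shapes the dendrites of retinal amacrine cells in the mouse, had 19.1 FPKM in neurons, 16.2 FPKM in RGPC and 3.66, 2.97 and 4.90 FPKM in NESC. FAT3 rose in neurons (log2 fold change 2.07 ± 0.32, adjusted p = 0.0345), and RGPC lay nearly as high (1.85 ± 0.32 against NESC, adjusted p = 0.278). DCHS2, a relative of DCHS1, had 1.35 FPKM in neurons, 2.01 FPKM in RGPC and 0.931, 0.236 and 0.0456 FPKM in NESC, from 29 reads at passage 5, 6 at passage 24 and 1 at passage 36. Neurons and RGPC lay above NESC, and it passed no test.

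Among FAT1, FAT3 and the long FAT4 row, FAT1 took 16.7% of their summed FPKM in neurons, 38.1% in RGPC and 55.6% to 63.2% in NESC. FAT4 took 64% in neurons, 49.6% in RGPC and 29.9% to 40.1% in NESC. FAT1 was therefore the leading FAT gene in each NESC library and the long FAT4 row the leading one in RGPC and neurons.

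**Figure D4:**
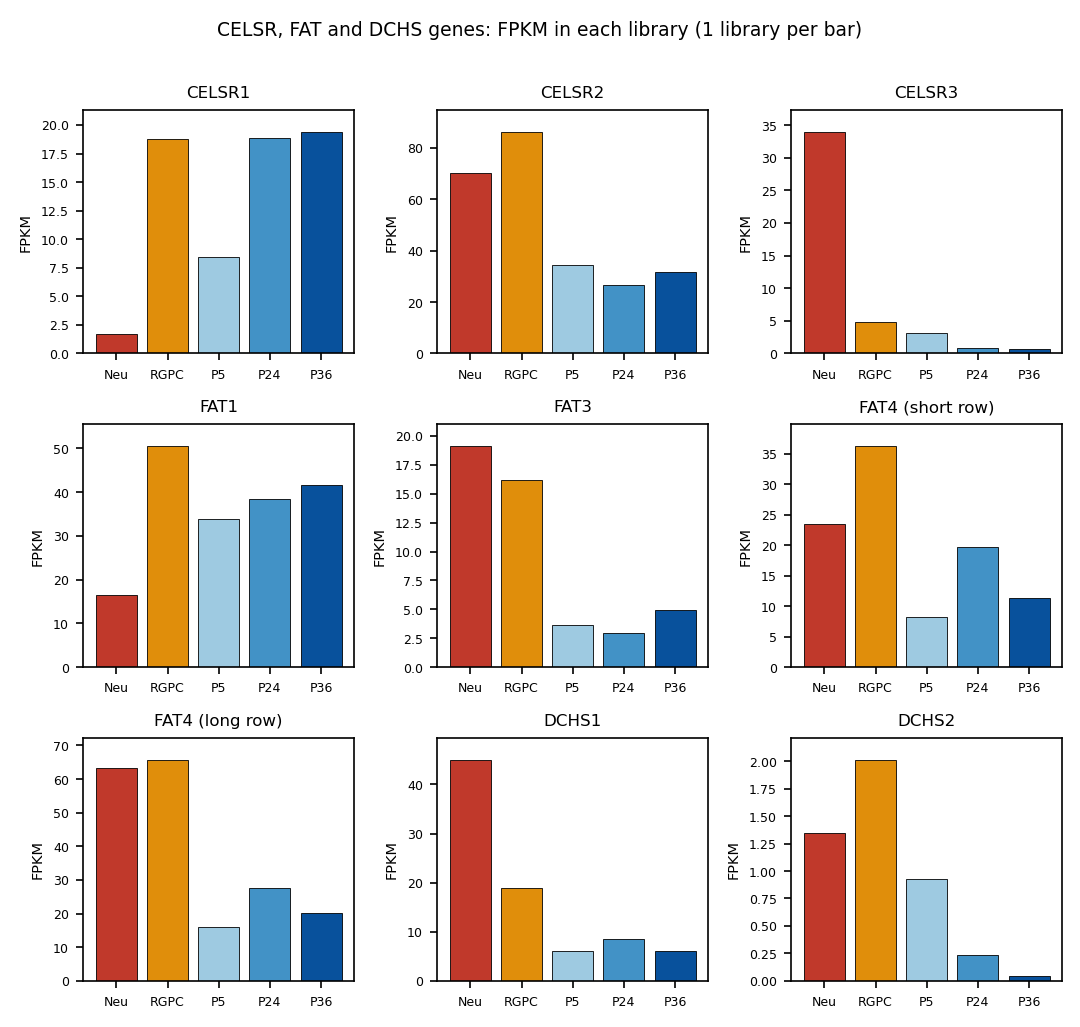
FPKM of the CELSR genes and of the tested FAT and DCHS rows, 1 bar per library (neurons, RGPC, then NESC at passages 5, 24 and 36), each panel on its own linear axis from 0. CELSR3 and DCHS1 are highest in neurons, CELSR1 and FAT1 are lowest there, and all 6 FAT and DCHS panels have RGPC above the 3 NESC bars.

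Of the type I classical cadherins, CDH4 was the member that changed. CDH4, or R-cadherin, an adhesion protein of brain and retina, had 16.0 FPKM in neurons, 9.72 FPKM in RGPC and 1.02, 2.28 and 2.57 FPKM in NESC. The groups did not overlap, and it rose in neurons (log2 fold change 2.56 ± 0.45, adjusted p = 0.0408), with 1.90 ± 0.45 in RGPC (adjusted p = 0.306). CDH3, or P-cadherin, ranged from 0.131 to 1.44 FPKM over the 5 libraries, and CDH15, the cadherin of muscle, had 2 reads in neurons and none elsewhere. CDH2, or N-cadherin, the main cadherin of neural tissue, carries no deposited symbol and was found through the annotation table's names. It had 208 FPKM in neurons, 252 FPKM in RGPC and 210.0, 231 and 249 FPKM in NESC, above every member of the family in every library. Its log2 fold change was −0.14 ± 0.14 in neurons (adjusted p = 0.505) and 0.13 ± 0.14 in RGPC (adjusted p = 0.702), and its sign in neurons turned under quantile normalization (0.07). No row with the name CDH1 was found, so E-cadherin is not analysed here.

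Type II classical cadherins, which sort neurons into groups and layers, had their highest sum in neurons. It was 147 FPKM in neurons, 102 FPKM in RGPC and 57.1, 79.8 and 57.5 FPKM in NESC. Of 11 members 9 were tested, 3 rose in neurons (CDH9, CDH18 and CDH22) and none fell; the same 3 were the type II members past the threshold against RGPC. All 3 passed the filter through neurons alone, and no type II member with 1 FPKM in RGPC or NESC rose, so their count is not set against the 14.3% of all genes that rose.

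CDH18, a cadherin known mainly from brain (chromosome 6, 19524947 to 19874297), had 12.7 FPKM from 200 reads in neurons, 0.448 FPKM from 8 reads in RGPC and 0.153, 0.0622 and 0.0890 FPKM from 1 to 3 reads in NESC. It rose against NESC (log2 fold change 3.64 ± 0.12, adjusted p = 0.00680) and against RGPC (log2 fold change 3.24 ± 0.14, adjusted p = 0.0116). CDH22, also known from brain (chromosome 10, 18232211 to 18308394), had 11.2 FPKM from 86 reads in neurons, 0.236 FPKM from 2 reads in RGPC and 0.119, 0.717 and 0.465 FPKM from 1 to 6 reads in NESC. It rose against NESC (log2 fold change 3.11 ± 0.31, adjusted p = 0.0204) and against RGPC (log2 fold change 3.31 ± 0.38, adjusted p = 0.0432). The CDH22 call against RGPC was lost with a pseudocount of 0.1 and with quantile normalization. CDH18 and CDH22 had fewer than 10 reads in every library outside neurons. CDH9, which in the mouse acts at a class of hippocampal synapses, had 1.49 FPKM from 21 reads in neurons and was listed at 0 in RGPC and in all 3 NESC libraries. Its adjusted p was 0.0115 against NESC and 0.0199 against RGPC, and no fold change is given against 0. With every NESC library at 0 the gene has no spread of its own there, so these p values say little beyond the 21 reads. Against RGPC the call was lost when at least 20 reads were required and in edgeR (adjusted p = 0.121).

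The abundant type II members were spread more evenly. CDH11, known from mesenchyme and from developing brain, had 37.8 FPKM in neurons, 26.6 FPKM in RGPC and 15.6, 29.4 and 15.7 FPKM in NESC. Its log2 fold change in neurons was 0.93 ± 0.48 with an adjusted p of 0.233; among NESC libraries the mesenchymal list was highest at passage 5 and CDH11 was highest at passage 24. CDH6, which marks divisions of the embryonic brain in the mouse, was highest in RGPC, with 17.4 FPKM in neurons, 33.5 FPKM in RGPC and 12.3, 16.8 and 11.6 FPKM in NESC. Its log2 fold change was 1.26 ± 0.28 in RGPC (adjusted p = 0.303) and −0.90 ± 0.34 in neurons against RGPC (adjusted p = 0.197). CDH8, found in the mouse in layers of cortex and at synapses, had 22.7 FPKM in neurons, 3.99 FPKM in RGPC and 1.61, 6.06 and 5.27 FPKM in NESC. Neurons lay above all other libraries for CDH8 (2.28 ± 0.75 against NESC, adjusted p = 0.113), and RGPC lay within the NESC range. CDH24 had 28.3 FPKM in neurons, 19.96 FPKM in RGPC and 8.64, 12.2 and 14.4 FPKM in NESC, without overlap between groups (1.23 ± 0.35 in neurons, adjusted p = 0.0888). CDH10 lay between 9.93 and 17.8 FPKM in all 5 libraries. CDH12 had 13 reads in neurons and at most 2 elsewhere, CDH20 at most 16 reads in a library, and CDH5, the endothelial cadherin, 1 read in RGPC alone.

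**Figure D5:**
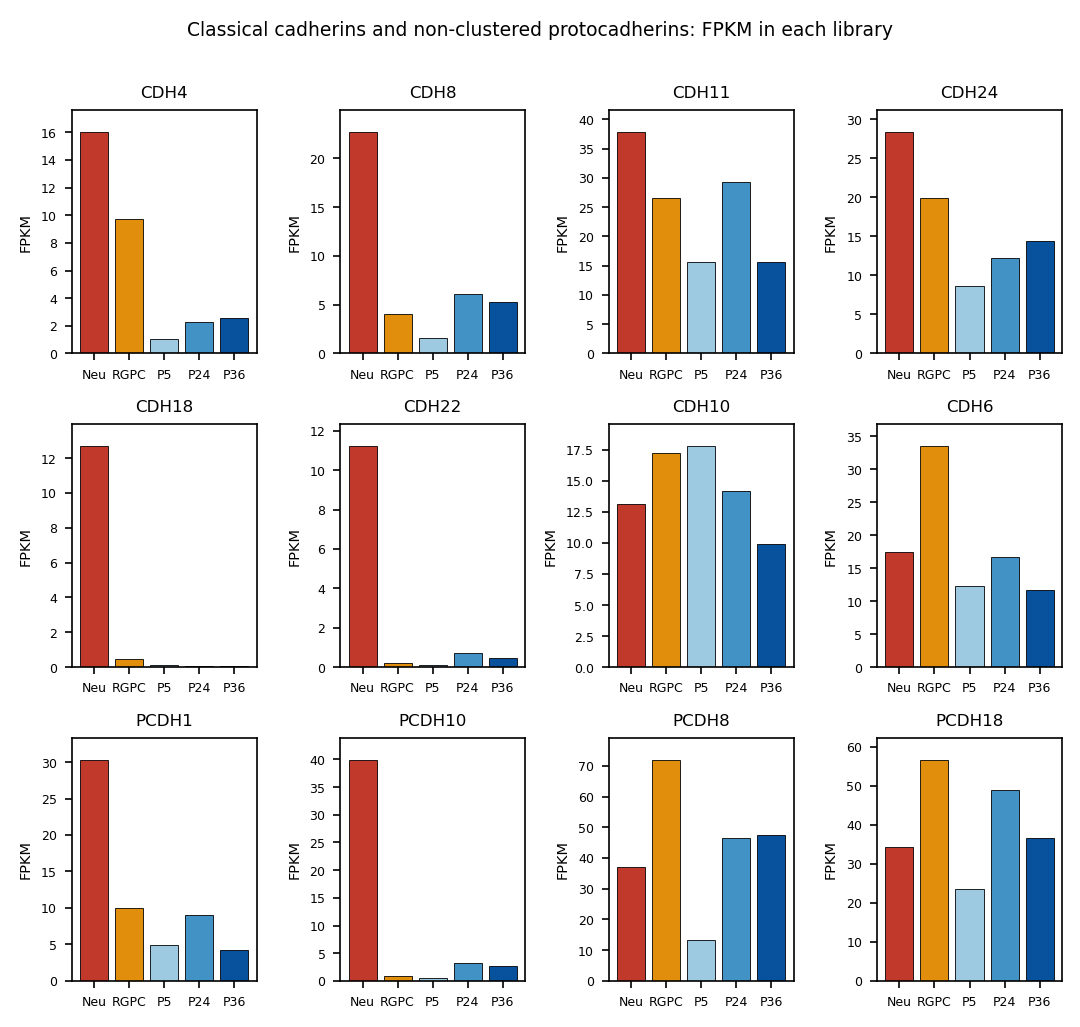
FPKM of classical cadherins and of protocadherins outside the clusters, 1 bar per library (neurons, RGPC, then NESC at passages 5, 24 and 36), each panel on its own linear axis from 0. CDH18, CDH22 and PCDH10 have a high bar in neurons alone, CDH6, PCDH8 and PCDH18 are highest in RGPC, and CDH10 differs little between libraries.

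Chromosome 6 carries 5 of the type II genes between 19524947 and 31390005, in the order CDH18, CDH12, CDH10, CDH9 and CDH6. They did not share 1 pattern: CDH18, CDH12 and CDH9 had their highest level in neurons, CDH6 in RGPC and CDH10 at passage 5. In all, 17 of the 44 members are on chromosome 6, of which 9 are clustered protocadherins.

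The delta protocadherins, which sit outside the clusters and act in neuronal migration and axon growth, differed among themselves. PCDH10, which controls actin at growth cones through the WAVE complex, had 39.9 FPKM in neurons, 0.891 FPKM from 8 reads in RGPC and 0.574, 3.31 and 2.62 FPKM in NESC. It rose in neurons (log2 fold change 3.81 ± 0.74, adjusted p = 0.0480) and is the only delta protocadherin among the members that did. RGPC lay within the NESC range, and the ratio of FPKM to the deposited normalized count differed by 1.58-fold between libraries for this gene. PCDH1 had 30.3 FPKM in neurons, 10.0 FPKM in RGPC and 4.95, 9.02 and 4.27 FPKM in NESC (2.20 ± 0.49 in neurons, adjusted p = 0.0589). PCDH19, mutated in a human epilepsy, had 4.71 FPKM in neurons, 1.38 FPKM in RGPC and 1.33, 1.16 and 2.12 FPKM in NESC (1.19 ± 0.29, adjusted p = 0.0706). For both, neurons stood above the other 4 libraries.

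PCDH8, PCDH17 and PCDH18 were already abundant in progenitors. PCDH8, whose protein takes N-cadherin off the synaptic surface in the rat, had 37.0 FPKM in neurons, 71.9 FPKM in RGPC and 13.3, 46.4 and 47.6 FPKM in NESC. PCDH18, which binds the reelin pathway adaptor DAB1 in the mouse, had 34.3 FPKM in neurons, 56.6 FPKM in RGPC and 23.5, 49.0 and 36.7 FPKM in NESC. Both were highest in RGPC and lowest at passage 5, and neurons lay within the NESC range. Their log2 fold changes in RGPC were 1.19 ± 0.94 and 0.68 ± 0.49, with adjusted p values of 0.619 and 0.586. PCDH17, which gathers at synapses of the mouse basal ganglia, had 17.7 FPKM in neurons, 11.2 FPKM in RGPC and 5.77, 8.37 and 19.4 FPKM in NESC, with passage 36 above neurons. PCDH15 and CDH23, the pair that forms the tip links of hair cells in the inner ear, were low: PCDH15 had 4.46 FPKM in neurons, 1.64 FPKM in RGPC and 0.897, 0.753 and 1.87 FPKM in NESC, and CDH23 had 3.44 FPKM from 66 reads in neurons and at most 0.972 FPKM elsewhere. Neurons were highest for both, and neither passed the threshold (adjusted p = 0.0852 for PCDH15 and 0.0834 for CDH23). CDH23 shares its span with 1 other gene, and its ratio of FPKM to normalized count differed by 1.58-fold between libraries with at least 5 reads. CDH17, the cadherin of intestine, and CDH26 stayed at or below 1.76 FPKM, and PCDH12 had at most 4 reads.

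In RGPC against NESC no member passed limma's threshold, and edgeR called none; 13 members had an unadjusted p under 0.05 in limma, all higher in RGPC, and 11 in edgeR. Over all genes 0.714% rose and 0.0137% fell, 0.727% together, and each of these 106 genes had fewer than 20 reads in every library. At an unadjusted p under 0.05, 9.03% of all genes were higher and 5.04% lower. Of the 13 members, CDH18, PCDHB4 and PCDHB16 passed the filter through neurons alone, with at most 10 reads in RGPC or a NESC library. With quantile normalization the count of 13 became 6. Of the 31 members with at least 20 reads in RGPC or a NESC library, 20 lay above the NESC range, against 39% of all such genes, and none lay below it, against 25.3%. By at least 2-fold 7 members lay above the range, against 3.66% of all genes, and none lay as far below it, against 1.41%. The members above were FAT3, CDH4, the long FAT4 row, CELSR2, DCHS1, PCDHB15 and DCHS2, with log2 fold changes from 1.15 to 1.90. The median over the 31 members was 0.70, against 0.11 over all genes with 20 reads. This comparison and neurons against NESC share the NESC libraries, so their values are not independent.

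In neurons against RGPC CDH18, CDH9, PCDHB4 and CDH22 rose and no member fell, 4 of 38 tested. Over all genes 3.88% rose and 3.68% fell, 7.56% together. All 4 are among the 7 members that passed the filter through neurons alone, so no member with 1 FPKM in RGPC or NESC was called, and the count cannot be read against those shares. Of the 35 members with at least 20 reads, 25 were higher in neurons, against 46.1% of all such genes, and 10 lower, against 53.9%. By fold, 19 were at least 2-fold higher in neurons, against 16.6% of all such genes, and 2 were at least 2-fold lower (FAT1 and CELSR1), against 20.5%. These counts are in part fixed by the filter of 20 reads. CDH9, CDH18, CDH22, CDH23, CDH26, PCDH10, PCDHB4 and PCDHB16 reached it in neurons alone, with at most 10 reads in RGPC, and all are among the 19. CELSR1, with 19 reads in neurons, reached it in RGPC alone. The median log2 fold change of the tested members was 0.81, against −0.05 over all genes. The call count was 2 without the passage 5 library and 0 without passage 24 or passage 36. edgeR called 7 members: CDH18, CDH22, PCDH10, PCDHB10 and PCDHGC5 higher in neurons, and CELSR1 and FAT1 lower, against 5.53% and 6.71% of its genes. Quantile normalization also called 4, with 3 higher and FAT1 lower.

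Between NESC passages several members differed by 2-fold or more, which is a description of 3 libraries with no test. Of the 31 members with at least 20 reads in a NESC library, 18 differed by at least 2-fold between their highest and lowest passage, against 18.4% of all genes with that many reads. Passage 5 was the lowest of the 3 for 14 of these members and the highest for 7. The largest ratios among members with at least 100 reads in a NESC library were those of CELSR3 (4.10-fold, highest at passage 5), CDH8 (3.76-fold) and PCDH8 (3.59-fold), with CDH8 and PCDH8 lowest at passage 5. PCDHGC5, FAT1, PCDHB2 and CELSR2 stayed within 1.29-fold.

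The partners of cadherins are given by list, each count to be read against the 14.3% of all genes that rose and the 13.3% that fell in neurons against NESC. Of 8 tested catenins 2 rose and 1 fell, a share near the 27.5% of all genes called in either direction. CTNNA1, alpha-E-catenin, which ties the cadherin complex to actin, had 88.8 FPKM in neurons, 332 FPKM in RGPC and 246, 238 and 195 FPKM in NESC, and fell (log2 fold change −1.33 ± 0.19, adjusted p = 0.0298; against RGPC −1.89 ± 0.23, adjusted p = 0.0461). CTNND1, p120-catenin, which keeps cadherins at the surface, had 139 FPKM in neurons, 95.6 FPKM in RGPC and 74.3, 63.9 and 74.0 FPKM in NESC, and rose (log2 fold change 0.97 ± 0.14, adjusted p = 0.0313). ARVCF, its relative, rose too (log2 fold change 1.08 ± 0.21, adjusted p = 0.0480). CTNNA2, another alpha-catenin, went the other way from CTNNA1 but missed the threshold (log2 fold change 4.78 ± 1.18, adjusted p = 0.0705). CTNNA2 had 53.7 FPKM in neurons, 0.588 FPKM in RGPC and 4.39, 0.382 and 0.0509 FPKM in NESC.

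Of 9 tested rows of junction partners 1 rose and 4 fell in neurons, against 14.3% and 13.3% of all genes; 2 of the 4 are rows of the same gene, VCL. JUB, now AJUBA, which binds alpha-catenin at junctions, had 6.37 FPKM in neurons, 56.7 FPKM in RGPC and 41.6, 44.4 and 46.2 FPKM in NESC, and fell against NESC (log2 fold change −2.61 ± 0.13, adjusted p = 0.0107) and against RGPC (log2 fold change −2.97 ± 0.15, adjusted p = 0.0142). Both rows of VCL, vinculin, fell, with log2 fold changes of −2.41 and −2.27, as did PVRL3, a nectin (−0.82 ± 0.15). The row that rose was MLLT4, now AFDN (0.96 ± 0.19). Of 5 tested genes of desmosomes, the junctions that anchor keratin, 3 fell and none rose, against 13.3% of all genes that fell. DSG2, a desmosomal cadherin, had 1.94 FPKM in neurons, 34.5 FPKM in RGPC and 24.9, 28.0 and 27.8 FPKM in NESC (log2 fold change −3.24 ± 0.16, adjusted p = 0.0109). DSC2, its partner, had 1.60 FPKM in neurons, 33.4 FPKM in RGPC and 15.3, 19.1 and 27.0 FPKM in NESC (log2 fold change −3.01 ± 0.39, adjusted p = 0.0276), and PKP2, a plaque protein, fell as well (−1.69 ± 0.26). The non-neural epithelial list, beside which these values stand, summed to 0.221 FPKM in neurons, 2.94 FPKM in RGPC and 6.56 to 16.7 FPKM in NESC.

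Of 12 tested partners of the CELSR genes in planar cell polarity, 4 rose and 1 fell in neurons, against 14.3% and 13.3% of all genes. PRICKLE2 had 12.1 FPKM in neurons, 2.26 FPKM in RGPC and 1.29, 0.944 and 0.687 FPKM in NESC (log2 fold change 2.75 ± 0.25, adjusted p = 0.0187), and PRICKLE1 had 16.1 FPKM in neurons, 2.71 FPKM in RGPC and 2.87, 2.87 and 3.65 FPKM in NESC (log2 fold change 2.06 ± 0.23, adjusted p = 0.0229). Both encode cytoplasmic proteins of the polarity complex, and PRICKLE1 also rose against RGPC (adjusted p = 0.0482). VANGL2, a membrane protein of that complex, rose (0.79 ± 0.13) and its relative VANGL1 fell (−1.06 ± 0.19, with 0.683 FPKM in neurons, 4.36 FPKM in RGPC and 2.72, 2.14 and 2.72 FPKM in NESC), as DVL3, a dishevelled protein, rose (1.02 ± 0.17). Of 3 calsyntenins, cadherin-related proteins of synapses, 2 rose: CLSTN3 had 85.4 FPKM in neurons, 7.89 FPKM in RGPC and 8.73, 3.72 and 3.96 FPKM in NESC (log2 fold change 3.82 ± 0.56, adjusted p = 0.0324), and CLSTN1 rose by less (1.02 ± 0.15).

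Of 11 tested regulators of the clustered protocadherin locus, among them CTCF and cohesin, 2 fell in neurons and none rose, which is near the 13.3% of all genes that fell and is no result about the list. SMC1A, a cohesin subunit, had 32.8 FPKM in neurons, 69.0 FPKM in RGPC and 85.3, 77.6 and 91.0 FPKM in NESC (log2 fold change −1.34 ± 0.14, adjusted p = 0.0209), and WAPAL, now WAPL, which releases cohesin from DNA, had a smaller change (log2 fold change −0.76 ± 0.11, adjusted p = 0.0330). Of 5 transcription factors known to repress CDH1, ZEB2 fell (log2 fold change −1.03 ± 0.19, adjusted p = 0.0449) and the others did not pass. In RGPC against NESC no gene of any of these lists passed limma's threshold.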

How the data were processed

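RNA-seq of 5 rhesus macaque libraries was analysed from 1 deposited table of 16970 Ensembl genes. Per the labels' protocols, mRNA was fragmented and copied with random primers into TruSeq libraries; per the submitters' processing notes, the authors used TopHat2 2.0.9. The sources used here do not name the counting program, strand setting, genome build or annotation. Per the file headers the authors deposited FPKM (the table's title says RPKM) and a normalized count, a signal per gene that proved to be whole reads times 1 factor per library: within 0.1 read, 100% of values were whole in 4 libraries and 99.994% in NESC passage 36 (1 value was not). Symbols were deposited for 10977 genes; RefSeq tables of another assembly supplied names alone, for 2204 genes by RefSeq peptide and 1291 by gene ID; 2498 stayed unnamed. Of the 44 members, 5 share a span with another gene. The members, lists and tests were chosen with earlier results of these data known.

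limma 3.58.1 (R 4.3.3, trend) was fitted to log2(FPKM + 1) for the 14571 genes with at least 1 FPKM in 1 library, in a model of 3 groups with 2 residual degrees of freedom, all from NESC; neurons and RGPC were assumed to vary like NESC. Tests were two-sided, with Benjamini-Hochberg adjustment over all genes and a threshold of 0.05; every adjusted p is limma's unless edgeR 4.0.16 (its quasi-likelihood test, run on the recovered reads) is named. The spread is that between NESC at passages 5, 24 and 36, so it includes differences between passages. Whether libraries came from separate cultures is not stated, so passage, culture and technical differences cannot be told apart in it. Values of 1 library carry no interval, and few reads are given beside low values. Named members were those past the threshold with 20 reads, up to 4 per class by highest FPKM with 50 reads, up to 6 per direction at least 2-fold outside the NESC range in RGPC, and CDH1 and CDH2; of partner lists, up to 4 members past the threshold by size. Members named beyond this rule, such as CDH3, CDH10 and PCDH19, account for the rest of the family and were chosen after their values were seen. Of the partner rows, CTNNA2, PVRL3 and VANGL2 were likewise named beyond the rule after their values were seen. Alternatives were a pseudocount of 0.1, no filter, at least 20 reads, quantile and median-of-ratios scaling, no trend, edgeR and leaving out each NESC library; adding the 9 rows of these families named only by the annotation tables was chosen after seeing the data. The tests were also run on simulated reads. These had no differences between NESC passages and changed only genes with many reads, so they do not cover passage differences or the low members.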

Additional observations from a re-analysis of the deposited data

How the results depend on the processing

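With 2 residual degrees of freedom, all from NESC, the calls rest on how alike the 3 passages are, and leaving out 1 passage leaves 1. No paired analysis was possible because neurons and RGPC have 1 library each. Both are of passage 36, so the NESC library of passage 36 is the one that shares their passage, and the model does not use that match. Low members such as CDH9, PCDHB16 and DCHS2 rest on few reads.

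For neurons against NESC, leaving out 1 NESC library gave 0 to 5 members (16 with all) and 0 to 927 genes (4013 with all), with 0 without passage 24 or passage 36; the other settings gave 12 to 24 members. For neurons against RGPC, the 4 members became 2 with a pseudocount of 0.1, 8 with no filter, 7 with at least 20 reads, 7 in edgeR and 0 to 2 without 1 NESC library; the 1101 genes became 1896 with no filter, 1836 with at least 20 reads and 0 to 530 without 1 NESC library. For RGPC against NESC, no setting called a member, and the 106 genes became 296 with no filter, 56 with no trend, 0 with at least 20 reads, 0 in edgeR and 0 without each NESC library. Adding the 9 rows named only by the annotation tables gave 19 members for neurons against NESC, 4 for neurons against RGPC and 0 for RGPC against NESC.

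Signs that turned, as log2 fold changes, were these; the cause was not tested. In RGPC against NESC, CDH23 was −0.015 with quantile normalization. CDH8 was −0.243 with quantile normalization, −0.058 with median-of-ratios scaling and −0.221 in edgeR, and −0.414 (without passage 5) to 0.302 without 1 NESC library. CELSR1 was −0.025 (without passage 5) to 0.527 without 1 NESC library. PCDH17 was −0.080 with quantile normalization and −0.105 in edgeR, and −0.179 (without passage 5) to 0.617 without 1 library. In neurons against NESC, CDH2 was 0.074 with quantile normalization; without 1 library PCDH18 was −0.298 to 0.216, positive without passage 24 or 36 (0.013), and PCDH8 was −0.336 (without passage 5) to 0.548. In neurons against RGPC, the long FAT4 row was 0.075 with median-of-ratios scaling and 0.031 in edgeR. Quantile normalization moved the median of all genes in RGPC against NESC to −0.02 and that of the members to 0.34.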

Other observations

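The deposited table also holds 9 rows of these families that carry no deposited symbol and are named only by the annotation tables, so they are not among the 44 members. Of the 9, CDH2 among them, 7 could be tested, and 3 rose in neurons against NESC. PCDH9, a delta protocadherin, had 39.7 FPKM in neurons, 1.83 FPKM in RGPC and 0.874, 1.42 and 2.57 FPKM in NESC (log2 fold change 4.01 ± 0.46, adjusted p = 0.0244). CDH7, a type II cadherin, had 25.4 FPKM in neurons, 16.1 FPKM in RGPC and 7.38, 9.20 and 7.19 FPKM in NESC (log2 fold change 1.57 ± 0.23, adjusted p = 0.0316). PCDHB13, which shares its span with PCDHB10 and PCDHB16, had 8.38 FPKM in neurons, 3.19 FPKM in RGPC and 0.576, 1.25 and 1.26 FPKM in NESC (log2 fold change 2.23 ± 0.31, adjusted p = 0.0297). For all 3, neurons lay above every other library. PCDH7, the relative of PCDH9, had 15.7 FPKM in neurons, 7.81 FPKM in RGPC and 3.83, 3.53 and 7.25 FPKM in NESC, with an adjusted p of 0.1 in neurons against NESC. CDH13, or T-cadherin, which is anchored by a lipid and has no cytoplasmic part, had 24.1 FPKM in neurons, 18.5 FPKM in RGPC and 2.25, 14.5 and 14.7 FPKM in NESC, with passage 5 far below the rest (adjusted p = 0.426). Like the calls of the members, these rest on the spread between the 3 NESC libraries, and no gene of the table passed without passage 24 or passage 36.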
